A study of Mus musculus with 8 samples.

Results

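Cytosolic ribosomal proteins are the protein parts of the ribosome, and their mRNAs are among the most abundant in any cell. The set was taken by symbol from the gene table of the study: every gene named Rpl or Rps followed by a ribosomal protein number, with Rplp0 to Rplp2 and Rpsa, and without the Rps6k kinases. It holds 84 of 31058 features, of which 52 belong to the large and 32 to the small subunit. The rule uses no measured value. Of the 84 members, 81 had enough counts to be tested in every comparison. Rpl3l and Rpl39l had 12 and 15 UMIs in all barcodes. Rpl10l had 0 of 135486534 UMIs, which allows a level of up to 0.0221 in 1000000 UMIs.

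The study asked how neural stem cells (NSCs) of the adult mouse hippocampus change their behaviour between youth and adulthood. Mice carried Ki67-creERT2, a tdTomato reporter and Nestin-GFP, all heterozygous on a mixed C57BL/6J and CD1 background, so that GFP marks cells with an active Nestin transgene and tdTomato marks cells that were dividing at the time of tamoxifen, with their progeny. All mice received tamoxifen on 6 days and were culled on day 8. Each experiment pooled the dentate gyri of several male and female mice, and GFP+tdT+ and GFP+tdT- cells were sorted. Mice aged 1 month gave 1 experiment, those aged 2 months gave 3, and the oldest, of 6–8 months (6 months in the labels), also gave 3. The label of 1 of the libraries of the first 2-month experiment also names GFP-tdT- cells. The 2-month libraries were made with Version 2 of the droplet chemistry and all others with Version 3, so age and chemistry cannot be told apart between them.

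Ribosomes translate mRNA into protein, and a growing or dividing cell must make new ones. Ribosomal protein mRNAs share a stretch of pyrimidines at their first bases, the terminal oligopyrimidine (TOP) tract, through which nutrient and growth signals control their translation together. In adult NSCs, leaving quiescence is known to go with more protein synthesis. Several members have paralogs, such as Rpl22 and Rpl22l1, whose proteins can take the same place in the ribosome.

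The counts are unique molecular identifiers (UMIs), 1 for each captured mRNA molecule, read near the end of the transcript that carries the poly(A) tail. A member's level is given as its count in 1000000 UMIs (CPM) of a cell group in 1 experiment, and the share of the set is given in percent of those UMIs. Both are parts of a whole, so a high share can come from more ribosomal protein mRNA or from less of other mRNA. The 8 libraries held 4861883 to 43826338 UMIs in 26036 barcodes. Median UMIs per barcode were 1960 to 2920.5 in Version 2 and 4734.5 to 7636.5 in Version 3 libraries. The set took 8.38% of all UMIs, and 6.6% to 12.5% in single libraries. Cell groups were gated by marker genes and are named "-like" for that reason. Of 24376 barcodes that passed the filters, 20364 fell into a group, and 847 (3.47%) were left out as doublets. Over the libraries, 59 barcode sequences occurred in more than 1 library. All groups had most of their own markers in at least 20% of their cells. Cycling NSC-like cells also had 2 of 4 intermediate progenitor cell (IPC) markers and 3 of 10 neuroblast markers at that level, and non-cycling NSC-like cells had 5 of 10 astrocyte markers. COP/NFOL-like cells had 7 of 7 OPC markers, and OPC-like cells 4 of 6 COP/NFOL and 5 of 10 neuroblast markers. Non-cycling and cycling IPC-like cells had 7 and 6 of 10 neuroblast markers.

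The sequences around the annotated starts are shown for the 5 members with the largest difference between cycling and non-cycling NSC-like cells, for the 2 that did not pass that test, and for Rpl13, which departed most from the set. Each window runs from 15 bases before the RefSeq start through the 15 bases from the start on, in GRCm38.p6, with runs of at least 5 pyrimidines (C or T) in capitals.
Rpsa (chr9:120127751-120127780, + strand): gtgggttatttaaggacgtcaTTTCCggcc
Rps6 (chr4:86857353-86857382, - strand): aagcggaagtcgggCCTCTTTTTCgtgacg
Rpl4 (chr9:64173372-64173401, + strand): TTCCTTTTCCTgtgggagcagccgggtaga
Rplp0 (chr5:115559452-115559481, + strand): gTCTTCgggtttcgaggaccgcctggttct
Rps2 (chr17:24720048-24720077, + strand): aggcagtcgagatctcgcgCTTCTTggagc
Rps27 (chr3:90213634-90213663, - strand): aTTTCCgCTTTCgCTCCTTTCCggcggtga
Rps21 (chr2:180257364-180257393, + strand): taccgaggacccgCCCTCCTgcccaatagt
Rps21, other start (chr2:180257434-180257463, + strand): ggacaagtgagcaggtaggcctcggtgcgg
Rpl13 (chr8:123102335-123102364, + strand): TTCCCTTTCgcctgattttgattggcgttt
RefSeq windows were matched for 64 of the 84 members, with 76 starts. A run of at least 5 pyrimidines on the transcribed strand was in 67.1% of the member windows (51 of 76), against 47.3% of the windows of all 32851 starts. A C at the annotated start followed by 4 pyrimidines was in 17.1% (13 of 76), against 2.51% of all. The 45 tested members with such a run had a median cycling difference of 0.72 (log2) in NSC-like cells, and the 16 without had 0.68. The windows of Rps27 and of 1 start of Rps21 hold runs as the windows of Rps6 and Rpl4 do, while these members had different cycling differences. A run of letters in a window is not a mapped TOP start.

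The set's share of UMIs was lowest in astrocyte-like and highest in non-cycling IPC-like cells. Astrocyte-like cells had 4.16% ± 0.41 (SD, n = 7 experiments). Mural-like, dividing oligodendrocyte precursor cell (OPC)-like, myelinating oligodendrocyte (MOL)-like and non-dividing OPC-like cells followed at 5.77% ± 0.82 (n = 7), 5.79% ± 0.73 (n = 3), 5.97% ± 0.43 (n = 7) and 6.18% ± 0.88 (n = 7). These neighbours differed by less than their spread. Fibroblast-like cells had 6.47% ± 0.69 (n = 3). Non-cycling NSC-like cells and committed or newly formed oligodendrocyte (COP/NFOL)-like cells were close to each other at 8.25% ± 1.00 (n = 7) and 8.37% ± 0.99 (n = 6). Endothelial-like cells had 10.7% ± 1.12 (n = 7).

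All groups of the neuronal lineage past the quiescent stage had higher means than these. Cycling NSC-like, cycling IPC-like and neuroblast-like cells differed by less than their spread. The means were 14.2% ± 1.02 in cycling neuroblast-like (n = 5), 15.4% ± 0.97 in neuroblast-like (n = 7), 15.4% ± 0.84 in cycling NSC-like (n = 6) and 15.5% ± 0.95 in cycling IPC-like cells (n = 7). Non-cycling IPC-like cells had the highest, 17.0% ± 1.28 (n = 4), and cycling IPC-like cells were lower than them in all 4 experiments that held both, by 1.60 ± 0.92 percentage points. Microglia-like cells had 13.9% and 15.3% in the 2 experiments with at least 10 cells. No p-value is given for a share, since it is a score over the members.

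**Figure D1:**
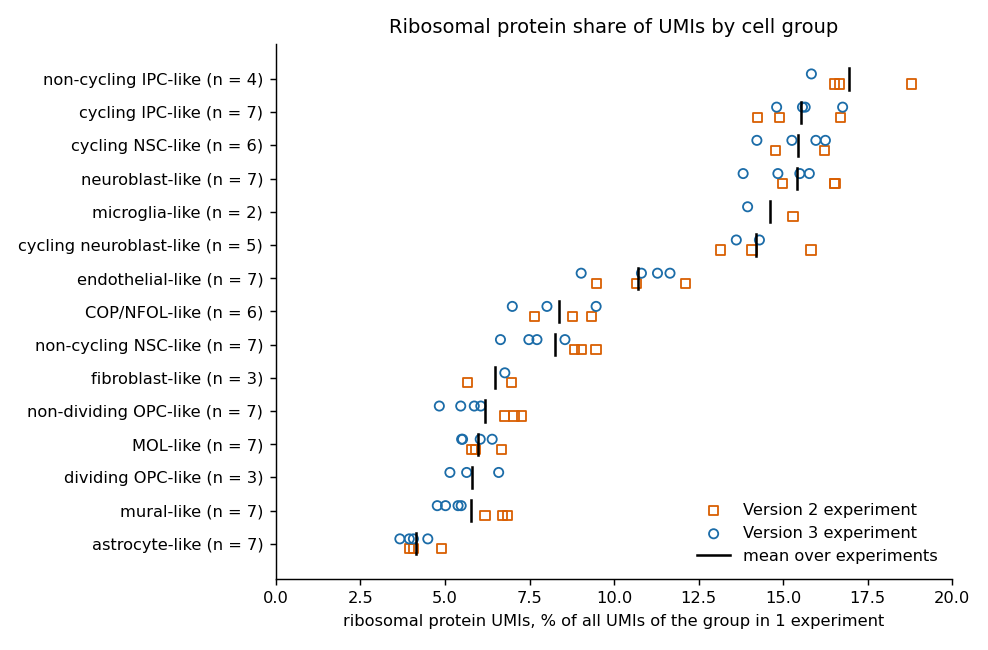
The horizontal axis gives the ribosomal protein UMIs in percent of all UMIs of a cell group in 1 experiment. Squares are Version 2 and circles Version 3 experiments, and the bar is the mean over experiments, from 4.16% in astrocyte-like to 17.0% in non-cycling IPC-like cells.

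Between NSC-like cells in and out of the cell cycle the share differed in each experiment. In non-cycling NSC-like cells it was 8.55% at 1 month, 9.04% and 8.83% in 2-month experiments 1 and 2, and 7.72%, 7.48% and 6.64% at 6–8 months. In cycling NSC-like cells of the same experiments it was 15.3%, 16.2%, 14.8%, 16.2%, 15.97% and 14.2%. The groups did not overlap, and the difference was 7.40 ± 1.02 percentage points (SD, n = 6), from 5.94 to 8.53, a ratio of 1.94 ± 0.21. Among cells with 2000 to 8000 UMIs the difference was 6.33 points over 3 experiments, which bears on depth, since median UMIs per cell were 3830 in non-cycling and 9922 in cycling cells (means over experiments).

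Dividing OPC-like cells had a slightly higher share than non-dividing ones. The non-dividing shares were 6.06%, 5.47% and 4.83% in the 1-month experiment and 6–8-month experiments 2 and 3, and the dividing shares were 6.59%, 5.64% and 5.15%. The difference was 0.34 ± 0.18 points (n = 3), with the dividing cells higher in all 3 experiments, and the ranges of both groups overlapped. It was 0.752 points with doublets kept and 0.539 as a mean of the cells' own shares. Only these experiments, all of Version 3, held at least 10 dividing OPC-like cells.

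**Figure D2:**
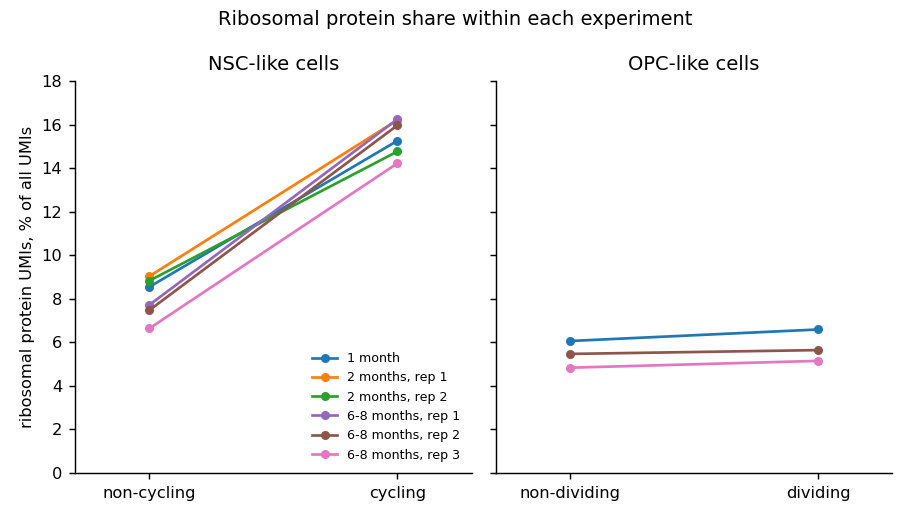
Lines join the share of ribosomal protein UMIs (percent of all UMIs) in non-cycling and cycling cells of the same experiment, for NSC-like cells at left (6 experiments) and OPC-like cells at right (3 experiments). NSC-like lines climb by 5.94 to 8.53 points, and OPC-like lines by 0.18 to 0.53.

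Cells were called cycling from at least 6 of 23 S, G2 and M phase genes and non-cycling from at most 2. By number of these genes, the share in NSC-like cells was 7.58% ± 1.04 with none, 9.13% ± 1.58 with 1 to 2, 14.9% ± 1.98 with 3 to 5, 17.3% ± 0.92 with 6 to 9 and 14.6% ± 0.77 with 10 or more. Cells with 3 to 5 of the genes entered no comparison. OPC-like cells had 6.15%, 6.16%, 6.14%, 6.08% and 5.52% in the same bins. The bins rest on 7, 7, 4, 3 and 5 experiments for NSC-like and 7, 7, 5, 3 and 3 for OPC-like cells, so means of different bins come from different mixes of experiments and chemistries and no trend is read from them.

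IPC markers moved with the cycling state: 188 of 248 cycling NSC-like cells held a UMI of an IPC marker, against 142 of 1513 non-cycling ones. Cycling cells without any IPC marker UMI had a share of 13.7% at 1 month and 15.6% in 2-month experiment 1, the only experiments with at least 10 such cells, against 8.09% and 8.42% in the non-cycling cells without one. Without the cells that hold an IPC marker, 47 of 81 members were higher and 0 lower in cycling cells over these 2 experiments, in place of 79 over 6. Of all 5109 genes in that fit 738 were higher and 803 lower, in place of 1768 and 2027 of 6368. The members' median was 0.59 (log2) and that of all genes 0.02. Among non-cycling NSC-like cells, those with an IPC marker UMI had the higher share in 7 of 7 experiments, 11.4% against 7.85% over all cells. They numbered only 7 in 2-month experiment 3 and 5 and 3 in 6–8-month experiments 1 and 2, under the limit of 10. Their median UMIs per cell were 6119.5 against 3992 in those without, and the part of depth was not tested. The part of IPC-like cells in the cycling difference was not tested further.

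Members were then tested one by one, with edgeR's quasi-likelihood test over all genes, the experiment as a block, and Benjamini-Hochberg adjustment. With the block, the p-values measure how the difference within an experiment varied from experiment to experiment, each a pool of mice. The age and chemistry tests had no block, and theirs measure the spread between experiments of a group. The cycling, neuroblast-like and astrocyte-like contrasts share the non-cycling NSC-like samples. Between cycling and non-cycling NSC-like cells, 79 of 81 tested members were higher and 0 lower, at an unadjusted p under 0.05 as well and with DESeq2 as well. Over all 6368 genes tested, 27.8% were higher and 31.8% lower. The members' median difference was 0.71 (log2) and that of all genes -0.04. All 49 tested large subunit members and 30 of 32 small subunit members rose. Scaled to total UMIs instead of by TMM, all 81 rose, with a median of 0.95 against 0.20 for all genes, and 2483 genes were higher and 1456 lower in place of 1768 and 2027.

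Rpsa, a small subunit protein also known as the laminin receptor, had the largest difference. Its level was 1342, 558, 465, 966, 1047 and 977 CPM in non-cycling NSC-like cells of the 6 experiments, in the order above, and 3575, 1813, 1518, 3066, 3842 and 3341 in cycling ones. Each cycling value exceeded every non-cycling value. The log2 difference was 1.45 (SE 0.10, adjusted p = 5.99e-16, higher in 6 of 6 experiments).

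Rps6, the small subunit protein that S6 kinases phosphorylate, rose by 1.12 (SE 0.10, adjusted p = 3.67e-12). Rpl4, which lines the exit tunnel of the large subunit, rose by 1.11 (SE 0.10, adjusted p = 2.86e-12). Rplp0 forms the base of the stalk that recruits elongation factors, and rose by 1.11 (SE 0.09, adjusted p = 5.07e-13). Its levels show the pattern without overlap, with 1016 to 1416 CPM in non-cycling and 2871 to 3346 in cycling cells of these experiments. Rps2, which sits at the mRNA entry of the small subunit, rose by 1.08 (SE 0.09, adjusted p = 1.21e-12). All 4 were higher in 6 of 6 experiments.

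The members that did not pass were Rps21 and Rps27, both small subunit proteins. Rps27 was at 1411, 2097, 2208, 1455, 1210 and 1244 CPM in non-cycling and at 1568, 2235, 2495, 1740, 1742 and 1601 in cycling cells. Its log2 difference under TMM scaling was 0.02 (SE 0.09, adjusted p = 0.847), with 3 of 6 experiments higher. Rps21 had 0.15 (SE 0.10, adjusted p = 0.193), also higher in 3 of 6. Its levels overlapped between the groups, with a highest non-cycling value of 2177 and a lowest cycling value of 947. Both had their adjusted p under 0.05 when counts were scaled to total UMIs, where all 81 members passed.

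Dividing OPC-like cells showed a smaller shift. Of 81 members 32 were higher and 2 lower than in non-dividing OPC-like cells, against 17.1% higher and 14.8% lower among 7426 genes. The members' median was 0.12 and that of all genes -0.02. Without the experiment as a block no member passed in either direction, while 696 of 7426 genes were higher and 181 lower. At an unadjusted p under 0.05 that fit had 1 member higher, beside 1095 genes. DESeq2 with the block called 9 members higher and 0 lower, beside 727 genes higher and 312 lower. Its higher calls were thus about as frequent among members as among all genes. Leaving out 6–8-month experiment 3 in edgeR left 7 members higher and 0 lower, and leaving out the 1-month experiment left 21 and 1. Counts over all genes are not given for these 2 fits, so no loss particular to members is read from them.

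Rps27l, the paralog of Rps27 and a known target of p53, had the largest difference here. Its level was 281, 272 and 243 CPM in non-dividing OPC-like cells and 339, 384 and 338 in dividing ones, without overlap. It rose by 0.44 (SE 0.07, adjusted p = 4.4e-07, 3 of 3 experiments). Rpsa rose by 0.37 (SE 0.05, adjusted p = 1.03e-07), from 829, 707 and 605 to 1071, 915 and 783. Rps15 rose by 0.36, Rps19, a gene mutated in Diamond-Blackfan anaemia, by 0.31, and Rpl41, which encodes a very short basic peptide, by 0.30. Rps21 fell by 0.19 (SE 0.06, adjusted p = 0.00579) and Rps27 fell by 0.16 (SE 0.06, adjusted p = 0.0336), the same members that did not pass in NSC-like cells. Both lost the call with DESeq2, with doublets kept and without the block.

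The difference between both cycling contrasts was tested in 1 fit over the 3 experiments that held all 4 groups. All 81 members had a larger cycling difference in NSC-like than in OPC-like cells, against 14.0% of 8344 genes, and 0 a smaller one, against 16.3%. The members' median was 0.84 and that of all genes 0.01. Rpsa had 1.26 (SE 0.14, adjusted p = 8.55e-08), Rps2 1.24 (SE 0.13, adjusted p = 4.91e-08), Rps6 1.20 (SE 0.14, adjusted p = 1.57e-07), Rps3, which also lines the mRNA entry, 1.15, and Rps12 1.1, each in 3 of 3 experiments. The smallest differences were those of Rps15 with 0.41 (adjusted p = 0.0262), Rps27l with 0.41 (adjusted p = 0.0199) and Rps27 with 0.45 (adjusted p = 0.0102). The count was 81 with total UMIs, beside 1382 genes higher and 1206 lower, and 80 with DESeq2, beside 869 and 1122. In these experiments 88 of 103, 23 of 31 and 27 of 36 cycling NSC-like cells held a UMI of an IPC marker. The fit could not be repeated without those cells, since only the 1-month experiment had at least 10 cycling NSC-like cells without one. Their part in the difference was not tested.

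**Figure D3:**
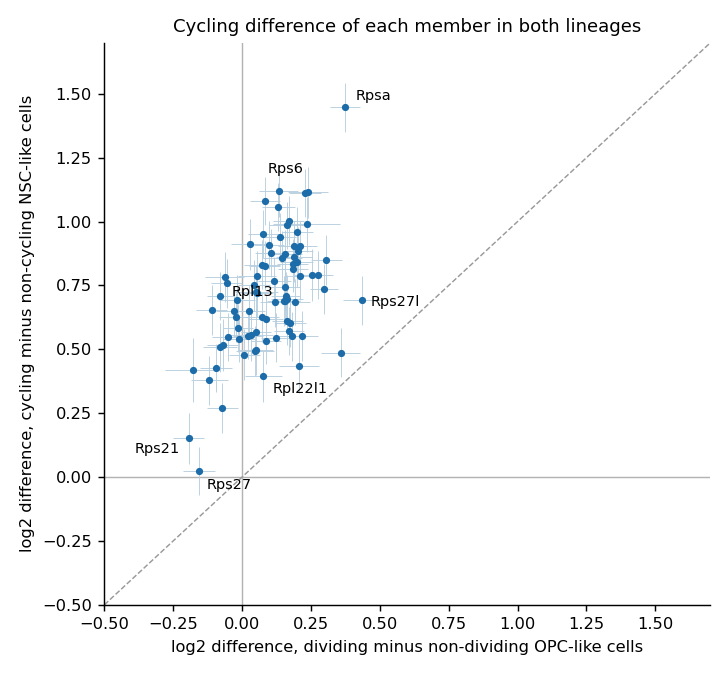
Each point is 1 of 81 members, with the log2 difference between dividing and non-dividing OPC-like cells on the horizontal and between cycling and non-cycling NSC-like cells on the vertical axis. Bars are standard errors and the dashed line marks equal values. All points lie above the line, with Rpsa farthest up and Rps27 and Rps21 lowest.

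Genes that work with the ribosome were read beside the set. Fau and Rack1, ribosomal proteins that the symbol rule leaves out, rose in cycling NSC-like cells by 0.38 and 0.91, and neither passed in OPC-like cells. Of 31 tested ribosome biogenesis factors 24 rose and 0 fell in cycling NSC-like cells, among them the nucleolar proteins Npm1 (1.28), Ncl (1.06) and Fbl (1.00). In dividing OPC-like cells 9 of 30 rose and 1 fell, with Npm1 at 0.37 and Ncl at 0.27. Of 13 other mRNAs known to carry a TOP tract, 12 rose in cycling NSC-like cells, such as Pabpc1 (1.45) and Eef1a1 (0.95), and 3 in OPC-like cells. Mitochondrial ribosomal proteins, which serve the separate ribosome of mitochondria, were divided, with 24 of 76 higher and 10 lower in cycling NSC-like cells and a median of 0.11.

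Neuroblast-like cells that were not gated as cycling had a share of ribosomal protein UMIs close to that of cycling NSC-like cells, with median UMIs per cell of 5393 and 9922. Their share exceeded that of non-cycling NSC-like cells by 7.18 ± 0.75 points in 7 of 7 experiments, and differed from that of cycling NSC-like cells by -0.21 ± 0.36 points (n = 6). Of 81 members 76 were higher and 1 lower than in non-cycling NSC-like cells, against 42.0% higher and 38.1% lower among 4147 genes. The members' median was 0.76, and that of all genes 0.07, which became 0.91 and 0.25 with total UMIs.

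Rpl35, a large subunit protein near the exit of the tunnel, had the largest difference. Its level ran from 562 to 1343 CPM with a median of 781 in non-cycling NSC-like cells, and from 1712 to 3453 with a median of 2512 in neuroblast-like cells. The ranges did not overlap, and the difference was 1.34 (SE 0.08, adjusted p = 4.41e-11, 7 of 7 experiments). Rps7 rose by 1.21, Rpl4 by 1.19 and Rps3 by 1.17. The member that fell was Rpl22l1, by 0.51 (SE 0.08, adjusted p = 1.26e-05, lower in 7 of 7), while its paralog Rpl22 rose by 0.81 (SE 0.08, adjusted p = 3.57e-08). Those that did not pass were Rpl7l1 (0.07), Rplp1, Rps21 and Rps27l (-0.11).

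The TOP and biogenesis lists also rose in neuroblast-like cells, with 12 of 13 and 15 of 22 members higher and 1 lower in each. The elongation factor Eef2 had the largest difference among those named, 1.96 (SE 0.09, adjusted p = 1.28e-12). Of 61 tested mitochondrial ribosomal proteins 34 fell and 7 rose, with a median of -0.32. Immediate early genes were divided, with 2 of 5 higher and 2 lower here, and 2 of 6 higher and 2 lower in cycling NSC-like cells. No member of the set passed edgeR's test of a difference between chemistries in the neuroblast-like contrast, against 2.34% of all genes. At an unadjusted p under 0.05, 0 members were higher and 5 lower. No share over all genes was taken at that limit, so this count is not read as particular to members. The members' median was -0.13 and that of all genes 0.05.

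Astrocyte-like cells had less of every tested member than non-cycling NSC-like cells. The share was lower in 7 of 7 experiments, by 4.09 ± 0.76 points. All 81 members fell and 0 rose, at an unadjusted p under 0.05 and with DESeq2 as well, against 27.1% lower and 25.8% higher among 3119 genes. The members' median was -0.84 and that of all genes -0.05. With total UMIs these were -0.99 and -0.19, with 612 genes higher and 1262 lower in place of 806 and 845.

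Rplp0 had the largest difference. Its level ran from 1016 to 1445 CPM with a median of 1209 in non-cycling NSC-like cells and from 324 to 560 with a median of 411 in astrocyte-like cells, with no overlap. It fell by 1.4 on the log2 scale (SE 0.08, adjusted p = 4.01e-11, 7 of 7 experiments). Rps19 fell by 1.11 and Rps12 by 1.11. Of the other lists, 12 of 12 TOP mRNAs and 10 of 14 biogenesis factors fell and 0 rose, and 10 of 60 mitochondrial ribosomal proteins fell. Immediate early genes, which cell dissociation is known to induce, fell too, with Fos by 2.12, Jun by 1.58 and Junb by 1.5 as the 3 of 11 listed that were tested. Their part in the result was not tested. The difference between astrocyte-like and non-cycling NSC-like cells was itself larger in Version 2 for 3 members (Rpl4, Rps4x and Rpl15), against 4.17% of all genes in either direction. At an unadjusted p under 0.05, 0 members were higher and 20 lower in Version 2 minus Version 3. The members' median was -0.17 and that of all genes -0.01.

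In the oligodendrocyte lineage the share peaked in COP/NFOL-like cells. It was higher there than in non-dividing OPC-like cells in 6 of 6 experiments, by 2.14 ± 0.91 points, and higher than in MOL-like cells in 6 of 6, by 2.47 points on average. Among cells with 2000 to 8000 UMIs the COP/NFOL-like mean was 7.13% (5 experiments) in place of 8.37%. Between its ends the share hardly differed, with MOL-like cells 0.21 ± 0.86 points lower than non-dividing OPC-like cells. The sign differed between experiments, with MOL-like cells lower by 0.54 points at 1 month (14 MOL-like cells) and by 0.09, 1.13 and 1.46 at 2 months, and higher by 0.53, 0.58 and 0.66 at 6–8 months.

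The count of members between MOL-like and non-dividing OPC-like cells depended on the scaling. With TMM, 68 of 81 were higher and 3 lower, against 39.6% and 40.8% of 5217 genes, with a median of 0.54. With total UMIs, 25 were higher and 24 lower, with a median of 0.04, while the median of all genes moved from -0.01 to -0.52, and 22.6% of genes were higher and 64.2% lower. In Version 2 experiments alone, 22 members were higher and 16 lower, beside 949 and 877 of all 2389 genes. In Version 3 experiments alone, 74 members were higher and 2 lower, beside 2492 and 2515 of all 6118 genes. No member passed edgeR's test of a difference between chemistries in this contrast, against 6.77% of all genes. At an unadjusted p under 0.05, 3 members were higher and 20 lower. No share over all genes was taken at that limit, so this count is not read as particular to members. The members' median was -0.18 and that of all genes 0.01. With total UMIs 9 members passed the test, all lower, beside 163 higher and 219 lower of all 5217 genes.

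The largest differences held under each of these settings. Rpsa ranged from 587 to 1469 CPM in MOL-like and from 320 to 829 in non-dividing OPC-like cells, with a difference of 1.42 (SE 0.09, adjusted p = 2.02e-09) and 0.92 with total UMIs. The ranges overlapped over all experiments, since Rpsa was lower in Version 2 libraries of both groups, but MOL-like cells were higher in 7 of 7. Rps3 rose by 1.34, Rplp0 by 1.17, Rps6 by 1.15 and Rpl4 by 1.15. Rpl13 fell by 1.59, Rpl7l1 by 0.75 and Rps27l by 0.15 (adjusted p = 0.0441). The last call was lost in 7 other settings, in 2 of which, with other filters on low genes, the value turned to 0.06 and 0.08. With TMM, 10 of 13 other TOP mRNAs rose and 0 fell, while 1 of 20 biogenesis factors rose and 8 fell, and of 67 mitochondrial ribosomal proteins 24 rose and 22 fell. These counts rest on the same scaling.

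Most members differed little in their proportion of the set. Rpl41, Rpl13 and Rps29 had the highest shares of the set's UMIs of any member, with 3.29%, 3.24% and 2.59% on average over 10 groups. These are molecules counted at 1 end and not divided by length. As a fraction of the set, the level of a member ranged over the 10 groups by a median of 0.63 (log2) among 81 members, with the smallest range, 0.34, in Rpl37. Only 10 members ranged over more than 1: Rpl13, Rps27l, Rpl7l1, Rpl22l1, Rpl38, Rpsa, Rpl10a, Rps27, Rplp0 and Rpl36al. Of these, Rps27 and Rps27l form a listed paralog pair, and Rpl7l1, Rpl22l1 and Rpl36al belong to others. Rps27l, Rpl7l1, Rpl22l1 and Rpl36al made only 0.38%, 0.11%, 0.61% and 0.34% of the set on average. The part of their low counts in the wide ranges was not tested.

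**Figure D4:**
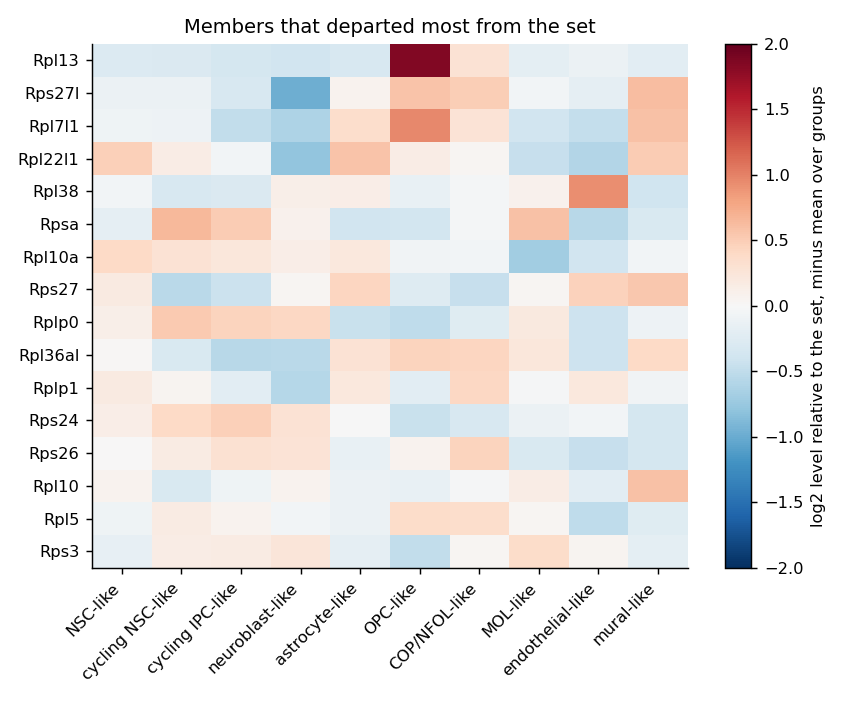
Rows are the 16 members with the widest range and columns the 10 cell groups with at least 10 cells in 6 or more experiments. Colour gives the log2 level relative to the set's sum, less the member's mean over groups, from blue (lower) to red (higher). The darkest cell is Rpl13 in OPC-like cells, at 1.85.

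Rpl13, a large subunit protein, stood apart in OPC-like cells. It took 9.23% to 10.7% of the set's UMIs in non-dividing OPC-like cells, with a median of 10.1%. In each experiment of the rest of the 10 groups, except COP/NFOL-like cells, it took 1.90% to 2.90%. Dividing OPC-like cells are not among the 10 groups. The Rpl13 level was 5184 to 7128 CPM with a median of 6047 in non-dividing OPC-like cells and 5851, 4942 and 5130 in dividing ones. It was 1451 to 2251 in non-cycling NSC-like, 1289 to 1606 in MOL-like and 784 to 1161 in astrocyte-like cells, all well below. In COP/NFOL-like cells it lay between, at 1584 to 5630, and took 2.27% to 7.36% of the set.

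The Rpl13 pattern was the same in both chemistries, with ranges of 2.14 and 2.31 (log2) over the groups in Version 2 and Version 3. Against OPC-like cells the MOL-like level fell by 1.59 (SE 0.08, adjusted p = 3.96e-10, 7 of 7 experiments), and by 2.09 with total UMIs. Between dividing and non-dividing OPC-like cells the difference was -0.08 (adjusted p = 0.238). The gene lies at chr8:123102350-123105244 on the + strand of GRCm38. Its neighbours were at far lower levels but were also highest in OPC-like cells of the 3 groups examined. The median of Spg7 was 74.1 CPM in non-dividing OPC-like, 29.0 in non-cycling NSC-like and 30.1 in MOL-like cells, and that of Cpne7 was 4.19, 0 and 0.201. Their part in the Rpl13 pattern was not tested. Rpl13 shares stretches of 60 bases with 11 other annotated genes, none of them counted in the table.

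Rpl38, a large subunit protein known from mice in which its loss alters body patterning, stood apart in endothelial-like cells. It took 2.76% to 4.04% of the set there and 1.11% to 1.44% in mural-like cells, and no other of the 10 groups exceeded 2.24%. Its level was 2615 to 4709 CPM with a median of 3351 in endothelial-like and 627 to 827 with a median of 721 in mural-like cells, which also belong to vessels. Rpl10a, a protein of the stalk where spent tRNAs leave, was the reverse case in MOL-like cells. It took 0.49% to 0.54% of the set there, below all values of the other 9 groups, the nearest being 0.56% in endothelial-like cells, and 1.05% to 1.16% in non-cycling NSC-like cells. Its level between MOL-like and OPC-like cells depended on the scaling, since it did not pass with TMM (-0.14, adjusted p = 0.145) and fell by 0.65 with total UMIs (adjusted p = 1.35e-05) and by 0.65 in Version 2 alone (adjusted p = 8.69e-05), while in Version 3 alone the difference was 0.03 (adjusted p = 0.771).

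Paralog pairs shifted between cell groups. Rpl22l1 made 57.7% ± 7.73 (SD, n = 7) of the UMIs of the Rpl22 pair in non-cycling NSC-like, 48.7% ± 3.72 (n = 6) in cycling NSC-like and 36.2% ± 8.97 (n = 7) in neuroblast-like cells. In astrocyte-like cells it made 60.1% ± 8.36, close to non-cycling NSC-like cells, and in endothelial-like cells 36.4% ± 8.06. Both proteins bind RNA as well as the ribosome. The range of non-cycling NSC-like cells was 49.5% to 70.0% and that of neuroblast-like cells 27.9% to 48.4%, without overlap. That of cycling NSC-like cells, 43.2% to 54.5%, overlapped the non-cycling one. These means mix chemistries. In non-cycling NSC-like cells Rpl22 and Rpl22l1 had mean levels of 392 and 740 CPM in Version 2 and 554 and 600 in Version 3.

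Rps27l made 9.20% ± 1.44 of the Rps27 pair in neuroblast-like, 14.3% ± 2.06 in non-cycling NSC-like, 21.5% ± 2.01 in cycling NSC-like, 26.8% ± 3.18 in non-dividing OPC-like and 37.0% ± 1.72 (n = 3) in dividing OPC-like cells. It was thus larger in cycling cells of both lineages, where Rps27l rose by 0.69 and 0.44 while Rps27 did not pass (0.02) or fell (by 0.16). The call of that fall was lost on leaving out any 1 experiment. The NSC-like ranges, 11.9% to 17.3% and 19.5% to 25.0%, did not overlap. The non-dividing OPC-like mean rests on 7 experiments of both chemistries and the dividing one on 3 of Version 3, so their gap mixes chemistries. Their ranges, 22.5% to 31.7% and 35.8% to 38.9%, did not overlap either. Rps27 shares sequence with a counted gene, Rps27rt, which held 4.73% as many UMIs.

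Rpl7l1 made 21.8% ± 3.37 of the Rpl7 pair in non-dividing OPC-like, 7.10% ± 1.02 in MOL-like, 11.1% ± 3.83 in non-cycling NSC-like and 5.91% ± 0.67 in neuroblast-like cells. Between OPC-like and MOL-like cells the members went opposite ways, Rpl7 rising by 1.01 and Rpl7l1 falling by 0.75. Rpl36al made 39.1% ± 4.62 of the Rpl36a pair in non-dividing OPC-like and 20.1% ± 4.19 in cycling IPC-like cells. The paralogs Rpl3l, Rpl10l and Rpl39l were at or near 0 throughout, and Rps4l was not analysed here.

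A few members differed strongly between Version 2 and Version 3 libraries. In non-cycling NSC-like cells 27 of 81 were higher and 5 lower in the 3 Version 2 than in the 4 Version 3 experiments, against 9.29% and 10.0% of 3694 genes, with a median of 0.24. In non-dividing OPC-like cells 37 were higher and 5 lower, against 18.9% and 21.3% of 5668 genes, with a median of 0.32. The Version 2 experiments are those at 2 months, and both sets of values come from the same libraries.

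Rpl23a, a large subunit protein at the exit of the tunnel, had the largest difference in both cell groups. Its level was 1543, 1197 and 1626 CPM in non-cycling NSC-like cells of the Version 2 experiments and 243, 262, 227 and 206 in those of Version 3. In non-dividing OPC-like cells it was 923 to 983 and 179 to 219. The groups were far apart in both, with log2 differences of 2.69 (SE 0.16, adjusted p = 4.51e-09) and 2.34 (SE 0.13, adjusted p = 6.32e-10).

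Rpl13a, which also acts in translational silencing, differed by 2.55 (SE 0.17) in NSC-like cells, from 73 to 114 CPM in Version 3 to 485 to 501 in Version 2, and by 2.23 (SE 0.14) in OPC-like cells. Rps6 was higher by 1.72 and 1.66 and Rpl17 by 1.58 and 1.77 in the 2 cell groups. Rps15 was higher by 1.82 in NSC-like and Rpl14 by 1.47 in OPC-like cells. Those lower in Version 2 were the same 5 members in both groups. Rpl30 fell by 1.00 and 0.85, Rpsa by 0.95 and 0.92, Rps20 by 0.84 and 0.54, Rps10 by 0.79 and 0.69, and Rps21 by 0.72 and 0.46. For Rps21 the call was lost without 2-month experiment 2 in both groups (adjusted p = 0.0516 and 0.0569), and in OPC-like cells also without 2-month experiment 3 (adjusted p = 0.0801). Of the other lists in NSC-like cells, 3 of 13 TOP mRNAs were higher and 2 lower, 2 of 19 biogenesis factors were higher and 2 lower, and 2 of 64 mitochondrial ribosomal proteins were higher and 1 lower.

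Many members have processed copies in the genome, and how a counter treats reads shared with them can set a member's level. In their last 500 bases, 76 of the 84 members shared a stretch of 60 bases with at least 1 other annotated gene, with a median of 6.5 genes. Rpl23a shared such stretches with 25 genes, Rpl13a with 4 and Rpl4 with 0, and all 3 were higher in Version 2 (Rpl4 by 1.56 in NSC-like cells). A gene that shares a stretch need not be a processed copy, as with Arrb1, Bcl2l13 and Ndufc1 for Rps16. The part of these shared stretches in the chemistry differences was not tested.

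**Figure D5:**
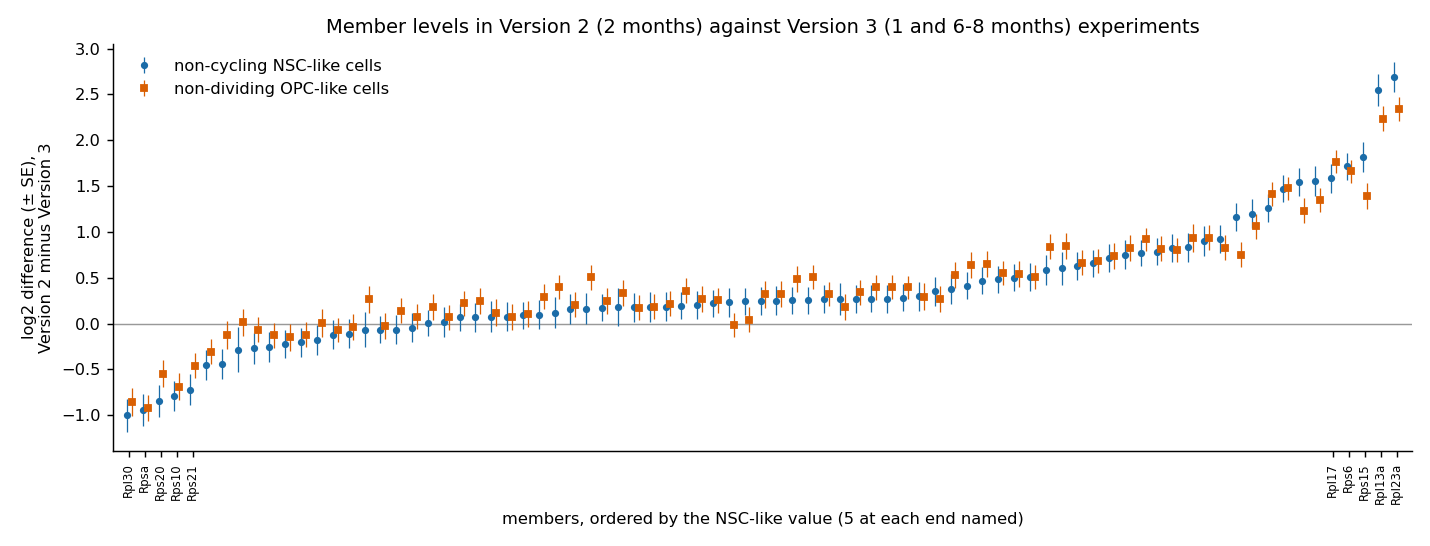
The vertical axis gives the log2 difference (with its standard error) of each member between Version 2 (2 months) and Version 3 (1 and 6–8 months) experiments, circles for non-cycling NSC-like and squares for non-dividing OPC-like cells. Members are ordered by the NSC-like value, with the 5 at each end named, from Rpl30 at -1.00 to Rpl23a at 2.69.

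The share itself was higher in Version 2 for some groups. It was 9.11% ± 0.32 (n = 3) against 7.6% ± 0.78 (n = 4) in non-cycling NSC-like, 7.02% ± 0.25 against 5.56% ± 0.54 in non-dividing OPC-like and 6.58% ± 0.35 against 5.16% ± 0.33 in mural-like cells, with no overlap in any of them. It was 15.5% ± 1.02 (n = 2) against 15.4% ± 0.90 in cycling NSC-like and 10.8% ± 1.32 against 10.7% ± 1.16 in endothelial-like cells, which overlapped. In the cycling contrast of NSC-like cells no member passed edgeR's test of a difference between chemistries, against 0.157% of all genes. At an unadjusted p under 0.05, 0 members were higher and 16 lower. No share over all genes was taken at that limit, so this count is not read as particular to members. The members' median difference was -0.25 and that of all genes -0.02. In the 2 Version 2 experiments alone, 61 of 81 members were higher in cycling cells and 0 lower, with a median of 0.45. Of all 4345 genes in that fit 803 were higher and 773 lower. In the 4 Version 3 experiments alone, 80 members were higher and 0 lower, with a median of 0.86. Of all 6868 genes there 1970 were higher and 1918 lower.

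Within Version 3, age could be compared between 6–8 months (3 experiments) and 1 month (1 experiment, assumed to vary like the others, in a fit that took its spread from all 7 experiments). In non-cycling NSC-like cells the shares were 7.72%, 7.48% and 6.64% at 6–8 months and 8.55% at 1 month. In non-dividing OPC-like cells they were 5.87%, 5.47% and 4.83% against 6.06%. The 1-month value was the highest in both. No member passed edgeR's test in either cell group, nor DESeq2's, against 0.504% of 3972 genes higher and 0.227% lower in NSC-like and 0.155% and 0.0343% of 5823 genes in OPC-like cells.

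At an unadjusted p under 0.05, 1 of 81 members was higher and 4 lower in NSC-like cells, beside 191 higher and 90 lower of all 3972 genes, and in OPC-like cells 0 and 1, beside 178 and 48 of 5823. The higher one was Rpl36al (0.66) and the lower ones were Rpl11, Rpl3, Rps19 and Rpsa, from -0.44 to -0.49. The 1 in OPC-like cells was Rpl10a (-0.42). The members' medians were -0.26 and -0.20, with a median SE of 0.22 and 0.21, so differences of this size could not be told from 0 with 1 experiment at 1 month.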

How the data were processed

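Droplet single-cell RNA-seq libraries from sorted dentate gyrus cells were analysed as deposited, as UMI counts per gene and barcode. The authors trimmed reads with cutadapt 1.18, counted UMIs with Cell Ranger 3.0.2 on mm10 extended with the reporter transgenes, and merged the libraries without normalization. Here the barcodes kept had more than 500 detected genes and less than 10% of mitochondrial transcripts, and were gated with 12 marker lists (at least 2 markers, and a lead of 0.1 over the next list). The scoring rule was chosen after marker detection was seen. Barcodes that scored at least 0.5 on another group's list as well were left out as doublets. Cells with at least 6 of 23 cycling markers were cycling, and those with at most 2 were not.

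The experiment (7 in all, the first 2-month experiment summed over its 2 libraries) was the replicate, with groups of at least 10 cells. UMIs were summed by group and experiment and tested with edgeR 4.0.16 (R 4.3.3, quasi-likelihood, TMM), leaving out genes detected in fewer than 20% of cells on both sides of a contrast. Benjamini-Hochberg adjustment ran over all genes tested, with 0.05 as the limit. Groups of 1 experiment come from the same mice and libraries, so contrasts within experiments carried the experiment as a block. Some of the fits were also run on simulated data, which held no differences between experiments and few changed genes. That run does not bear on the choice of scaling or block. DESeq2 1.42.0, other scalings, filters, gates and left-out experiments were alternatives, and those on Malat1, IPC markers, 4 cycling markers and the interaction with chemistry were added after seeing the data.

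Members and gene lists were chosen with earlier results of these data known. Named members are the 5 with the largest difference in each direction among those that passed and moved the same way in every experiment, the 3 with the highest share of the set, the 8 with the widest range over groups, and the paralog pairs, and others named were chosen after their values were seen. Start sequences came from RefSeq (GRCm38.p6). Counts of paralogs and processed copies are uncertain where reads are shared. The count limit of 3 for Rpl10l covers counting error only. Some genes that this rule names are not reported here.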

Additional observations from a re-analysis of the deposited data

Results flagged for a closer look

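Rpl7l1 had 29.0 CPM in non-cycling NSC-like cells of 2-month experiment 3, far below the other experiments. That sample held 137741 UMIs in 69 cells, the fewest of the non-cycling NSC-like samples, so the value rests on few molecules. It was the only sample that stood apart among 56 sets of values tested, where chance gives about 1 in 20.

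The cycling difference was larger in NSC-like than in OPC-like cells for 81 of 81 members, against 14.0% of 8344 genes. This was edgeR's test of the difference itself over 3 experiments. Most cycling NSC-like cells of these experiments held a UMI of an IPC marker, and their part was not tested. The difference between astrocyte-like and non-cycling NSC-like cells differed between chemistries, as Version 2 minus Version 3, by -0.64 for Rpl4 (adjusted p = 0.0178), -0.49 for Rps4x (adjusted p = 0.0261) and -0.47 for Rpl15 (adjusted p = 0.0336). These were 3 of 81 members, all lower, beside 68 genes higher and 62 lower of all 3119 (4.17% in either direction). In either direction, members were called about as often as all genes. At an unadjusted p under 0.05, 0 members were higher and 20 lower. No share over all genes was taken at that limit, so this count is not read as particular to members. The members' median was -0.17 and that of all genes -0.01. Age differs with the chemistry, and these cannot be told apart.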

How the results depend on the processing

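Of 56 named results, 46 kept their direction and call under every alternative run, and over 909 alternative values 882 kept them, 25 lost the call and 2 reversed. The reversed values were those of Rps27l between MOL-like and OPC-like cells, 0.056 with edgeR's own filter and 0.075 with every gene that had a UMI, and the cause was not tested. Of the cycling NSC-like members, 47 were higher without cells that hold an IPC marker, where only 2 experiments remained. In that fit 738 of all 5109 genes were higher and 803 lower. In dividing OPC-like cells DESeq2 called 9 members higher and 0 lower, beside 727 higher and 312 lower of all 7426 genes. Members called lower were 1 with each of the other filters and 0 with doublets kept. Leaving out an experiment gave 7 to 35 higher and 0 to 1 lower. Counts over all genes are not given for these filters, doublets and left-out experiments, so no loss particular to members is read from them. Between MOL-like and OPC-like cells, 25 members were higher and 24 lower with total UMIs, beside 1180 and 3347 of all 5217 genes. With total UMIs of other genes 22 members were higher and 24 lower, beside 1171 and 3344 of all genes. In Version 2 alone 22 members were higher and 16 lower, beside 949 and 877 of all 2389 genes. DESeq2 called 5 members lower, beside 2269 of all 5217 genes. Leaving out an experiment gave 2 to 5 members lower, with 5 without 6–8-month experiment 3, and no count over all genes is given there. The COP/NFOL-like share was 7.13% and the cycling NSC-like difference 6.33 points in cells with 2000 to 8000 UMIs. The dividing OPC-like difference was 0.752 points with doublets kept and 0.539 as a mean of the cells' shares.

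Without the experiment as a replicate block, 66 members were higher in cycling NSC-like cells, beside 1386 higher and 1591 lower of 6368 genes. In dividing OPC-like cells 0 were higher and 0 lower, beside 696 and 181 of 7426 genes. In neuroblast-like cells 67 were higher and 1 lower, beside 1455 and 1411 of 4147 genes. In MOL-like cells 50 were higher and 2 lower, beside 1644 and 1795 of 5217 genes. For the difference of the cycling contrasts 60 members were higher, beside 661 higher and 943 lower of 8344 genes. In astrocyte-like cells 70 members were lower, beside 515 higher and 424 lower of 3119 genes. No paired analysis was possible for the ages and chemistries because they are in different experiments. Version 2 alone was not run for dividing OPC-like cells, which it lacks in groups of 10 cells, nor were the ages without the 1-month experiment. Dividing OPC-like cells rest on 3 experiments, so counts of small differences there are least firm.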

Other observations

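Recombined cells, which the study reads as NSCs that divided and returned to rest, were few. By the study's limits on reporter transcripts there were 17 among the non-cycling NSC-like cells of 5 experiments with at least 2 each. They numbered 2 at 1 month, 2 and 6 in 2-month experiments 1 and 3, and 5 and 2 in 6–8-month experiments 1 and 2. Their share was 16.9%, 10.0%, 14.1%, 16.9% and 7.0% at 1 month, in 2-month experiments 1 and 3 and in 6–8-month experiments 1 and 2, against 8.52%, 9.03%, 8.93%, 6.87% and 7.49% in unrecombined cells. The difference was 4.84 ± 4.56 points, higher in 4 of 5, and its spread was nearly as large as its size. Without the limit on the intact reporter, 54 cells in 6 experiments had a difference of 5.62 ± 2.76 points, higher in 6 of 6.

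A subset of OPC-like cells held almost no ribosomal protein mRNA. Under 2% of UMIs came from the set in 141 of 4662 non-dividing OPC-like cells (3.02%), and in 0 of 250 dividing ones. The 141 cells had a median of 2325 UMIs, against 6292 in the other non-dividing and 9858 in dividing OPC-like cells. The part of depth in this was not tested. Malat1, a nuclear long noncoding RNA, took 20.1% of UMIs in the 141 cells and 7.10% in the other non-dividing ones, and mitochondrial genes took 7.14% and 3.21%. Almost all of the 141 came from Version 3 experiments, with 32 of 418 at 1 month and 2 of 130, 59 of 1260 and 45 of 1678 at 6–8 months. At 2 months they were 2 of 335, 0 of 295 and 1 of 546. Cells under the same limit made 5.14% of COP/NFOL-like cells (18 of 350), with a median share of 0.806%. Malat1 took 19.5% of UMIs in these 18 and 4.80% in the other COP/NFOL-like cells, and mitochondrial genes 4.90% and 3.01%. Cells under the limit made 5.95% of astrocyte-like cells (111 of 1867). There the median share was 1.73% in them and 3.70% in the whole group, against 0.589% and 5.47% in OPC-like cells. Malat1 took 15.6% of UMIs in these 111 astrocyte-like cells and 8.65% in the others, and mitochondrial genes 4.55% and 4.73%. The 111 cells were found in both chemistries, with 52 of 877, 14 of 223 and 1 of 59 at 2 months.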
